A study of Arabidopsis thaliana with 96 samples.

Results

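The nuclear genes for the photosystems, their antennae and the Rubisco small subunit were examined in peak lists of accessible leaf chromatin from *Arabidopsis thaliana*. The set held 47 of the 27444 nuclear protein-coding genes of the reference annotation, chosen by their loci and by no measured value. Of these, 6 encode the antenna of photosystem I, 15 the antenna of photosystem II, 12 subunits of photosystem I, 10 subunits of photosystem II and 4 the small subunit of Rubisco. A gene was credited with every peak whose summit lay between 1000 bp before its annotated start and 300 bp past its end.

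ATAC-seq cuts chromatin with the Tn5 transposase, so that tags pile up where DNA in the nucleus is open. The series holds 96 lists, 4 for each group, from leaves of plants kept in chambers at 22 °C under 16 h of light and 8 h of dark. The lists of Ad-0, En-2, Hi, Mt, Og and Col-0 were used, which are natural accessions of the species, with no transgene or treatment named in the labels. The lists of the first 5 name their chromosomes as the reference does, and those of Col-0 keep positions within 150 bp of it. A further Col-0 group that the labels call untreated, and whose headers name naked DNA, served as the background. The 4 lists of an accession were counted as 1 sample, because nothing in the labels says that they came from separate plants. They held 1463227 to 4754108 tags and 5564 to 21327 nuclear peaks per list. Ad-0 and Hi had the fewest peaks, 5564 to 6472, and Mt the most, 18995 to 21327.

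In the thylakoid membrane, chlorophyll bound to antenna proteins collects light and passes it to the photosystems, photosystem II splits water, and photosystem I reduces ferredoxin. Rubisco in the stroma then fixes carbon dioxide. The core subunits of the photosystems and the large subunit of Rubisco are encoded in the chloroplast, while the antenna proteins, the peripheral subunits and the small subunit are made from nuclear genes that light and the circadian clock control. Short promoter words known from these genes are the G box, the I box and the GT1 box of light-regulated promoters, and the site bound by the clock factor CCA1 in an antenna promoter.

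The sequences that the results turn on come first. In 3 of the 4 Rubisco small subunit genes an I box (GATAAG) was followed at nearly the same spacing by a G box (CACGTG). These 30 bases are shown for each, 5′ to 3′ along the gene, with both boxes in capitals. They lie on the minus strand of the RefSeq copy of TAIR10 at chr1:25049503-25049532 (RBCS1A), chr5:15378517-15378546 (RBCS3B) and chr5:15382188-15382217 (RBCS2B).
RBCS1A: GATAAGattcatggaattatcttcCACGTG
RBCS3B: GATAAGataatggagttttctgcCACGTGg
RBCS2B: GATAAGattatggagttttctgcCACGTGa
Between the boxes lay 18 bases in RBCS1A and 17 in RBCS3B and RBCS2B, and the stretches of RBCS2B and RBCS3B were identical at 28 of 30 bases. RBCS2B and RBCS3B are neighbours on chromosome 5, and RBCS1A lies alone on chromosome 1. An I box with a G box after it in a stretch of at most 30 bases, with 5 to 18 bases between them, was searched in either direction along the gene. From 250 bases before to 300 bases after the start it was present in 3 of the 47 genes, all of them Rubisco genes, and in 40 of all 27444 genes (0.146%). This length and window were set after the Rubisco stretches were seen, so the counts describe the reference and are no test. RBCS1B, the remaining Rubisco gene, was not among them.

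The bases just before the annotated start are shown for the gene with the highest peak of each class. Capitals mark the G box (CACGTG), the I box (GATAAG), the GT1 box (GGTTAA), the CCA1-binding site (AAAATCT) and the TATA box (TATAAA), read on both strands, and neighbouring matches can share bases. They lie at chr3:17495034-17495283 (LHCA4, minus strand), chr1:10477635-10477884 (LHCB1.3, plus), chr1:11216142-11216391 (PSAF, minus), chr5:26568471-26568571 (PSBO1, plus) and chr1:25049668-25049917 (RBCS1A, minus). For PSBO1 only 101 bases separate its start from the next annotated gene.
LHCA4: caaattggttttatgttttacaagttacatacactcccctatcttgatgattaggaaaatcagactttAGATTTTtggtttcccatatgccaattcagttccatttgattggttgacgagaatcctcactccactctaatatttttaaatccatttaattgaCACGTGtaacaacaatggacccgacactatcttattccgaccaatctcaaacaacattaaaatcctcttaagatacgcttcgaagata
LHCB1.3: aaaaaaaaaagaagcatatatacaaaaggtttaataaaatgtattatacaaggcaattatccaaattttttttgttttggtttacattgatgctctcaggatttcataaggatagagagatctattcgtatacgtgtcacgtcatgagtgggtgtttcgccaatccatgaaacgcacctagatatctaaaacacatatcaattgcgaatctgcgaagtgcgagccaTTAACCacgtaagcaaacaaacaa
PSAF: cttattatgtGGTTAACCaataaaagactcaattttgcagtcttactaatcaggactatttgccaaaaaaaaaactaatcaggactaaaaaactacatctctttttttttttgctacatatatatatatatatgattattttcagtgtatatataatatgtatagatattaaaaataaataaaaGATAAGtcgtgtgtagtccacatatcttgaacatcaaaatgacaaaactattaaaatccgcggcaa
PSBO1: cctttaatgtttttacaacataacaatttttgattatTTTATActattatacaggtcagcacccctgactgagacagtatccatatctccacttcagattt
RBCS1A: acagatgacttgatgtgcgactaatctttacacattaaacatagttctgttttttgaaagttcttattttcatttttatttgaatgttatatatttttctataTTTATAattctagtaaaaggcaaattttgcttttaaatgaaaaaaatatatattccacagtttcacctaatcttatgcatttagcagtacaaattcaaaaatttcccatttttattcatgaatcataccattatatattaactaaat
LHCA4 carried a G box 88 bp before its start. Neither box lay in the printed stretch of RBCS1A, whose I box and G box began 135 and 159 bp after the annotated start.

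All 47 genes had a peak in at least 1 of the 24 lists, beside 75.5% of all genes. Of these, 17 genes (36.2%) had a peak in all 24 lists, beside 8.60% of all genes, and 16 (34.0%) had a summit within 500 bp of the start in all 24 lists, beside 5.49%. The 17 were 4 of the 6 photosystem I antenna genes, 4 of the 15 photosystem II antenna genes, 3 of the 12 photosystem I genes, 3 of the 10 photosystem II genes and 3 of the 4 Rubisco genes. A further 16 genes were found in 20 to 23 lists and 14 in fewer, and none in fewer than 11.

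Within single accessions the genes were listed more often than the average gene in every case. In Ad-0, 25 of 47 (53.2%) had a peak in all 4 lists, beside 14.2% of all genes, and in Hi 24 (51.1%) did, beside 14.0%. In En-2 there were 39 (83.0%) beside 28.6%. The share was 42 genes (89.4%) in both Mt and Og, beside 49.6% and 36.6%, and 44 (93.6%) in Col-0, beside 40.4%.

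**Figure D1:**
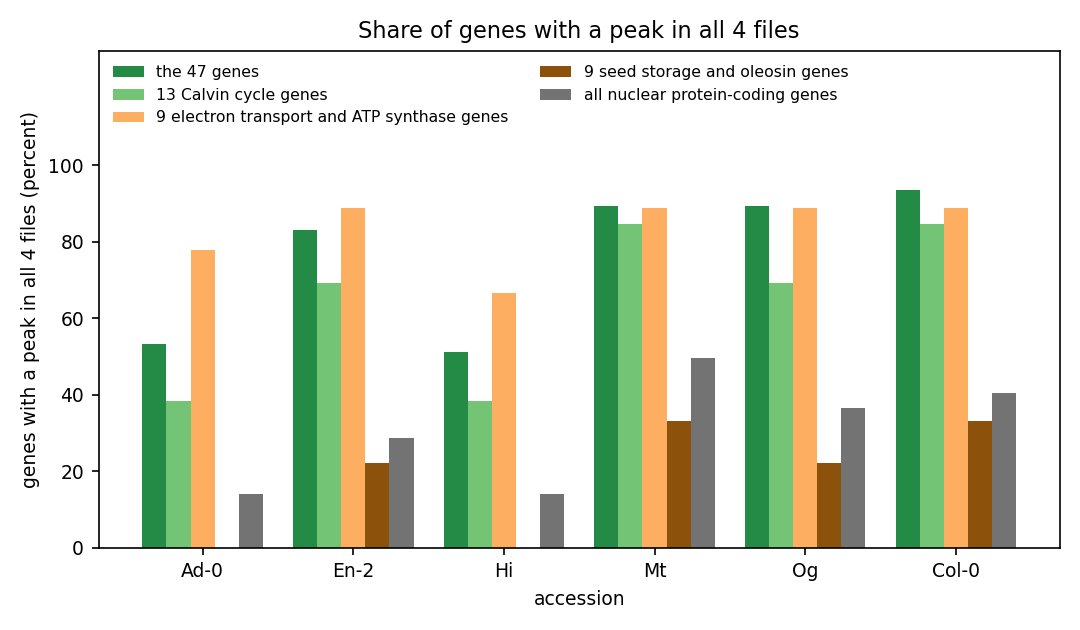
Percent of genes with a peak in all 4 lists of an accession, for the 47 photosystem, antenna and Rubisco genes, for 3 other gene lists and for all nuclear protein-coding genes. The 47 genes stand between 51.1% (Hi) and 93.6% (Col-0), all genes between 14.0% and 49.6%.

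Other genes of photosynthesis and genes of the seed were counted in the same way. Of 13 Calvin cycle genes, 3 (23.1%) had a peak in all 24 lists, beside 8.60% of all genes. In Ad-0 and in Hi 5 (38.5%) had a peak in all lists, beside 14.2% and 14.0% of all genes. In each other accession 9 to 11 (69.2% to 84.6%) did, beside 28.6% to 49.6%. Among 9 genes of electron transport and ATP synthase the number was 6 in Hi (66.7%), 7 in Ad-0 (77.8%) and 8 in each other accession (88.9%), beside the same shares of all genes. In all 24 lists 5 of the 9 (55.6%) had a peak. Of 9 seed storage and oleosin genes, which serve the seed, none had a peak in all lists of Ad-0 or Hi, beside 14.2% and 14.0% of all genes. In En-2 and in Og 2 (22.2%) did, beside 28.6% and 36.6%. In Mt and in Col-0 3 (33.3%) did, beside 49.6% and 40.4%. With 9 genes these counts do not set the seed genes apart from all genes. None of the 47 genes had a peak in any of the 4 untreated Col-0 lists, and 1.39% of all genes did. At a share that low, the lack of a peak among 47 genes does not set them apart from all genes. The untreated lists rest on more tags (10822758 to 11043945) than any other used here.

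The height of a peak is given as its pileup, the number of extended tags over the summit, per 1000000 tags of the list (RPM), for the highest peak of the gene. The lowest peak of a list had 2.94 to 4.52 RPM. Peaks were called by a q-value and not by height, so a gene without a peak can lie below or above that height. A lower pileup can mean fewer nuclei with open DNA at the site or less often open DNA in each, and these cannot be told apart in nuclei pooled from whole leaves. Over the 17 genes with a peak in all lists the median of the mean height was 17.9 RPM, and over the 2360 such genes of the whole annotation it was 18.3. The ratio of these medians was 0.979. Computed in each accession apart over the same genes, the ratio ran from 0.893 in Mt to 1.14 in Og (SD 0.103, n = 6 accessions). Thus the 47 genes were listed more often, and those always listed were of about the height of other genes always listed. None of the 17 stood in the top 10% of the 2360 genes and 8 stood in the top 50%. When each accession was taken alone, with every gene listed in all its 4 lists, the median height of the members was 0.985 times that of all genes in Hi, 1.15 times in Ad-0 and 1.31 to 1.38 times in the other 4 accessions. Taken so, 2 of 25 members stood in the top 10% in Ad-0, 4 of 39 in En-2 and 2 of 24 in Hi. In Mt 5 of 42 did, in Og 8 of 42 and in Col-0 8 of 44.

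**Figure D2:**
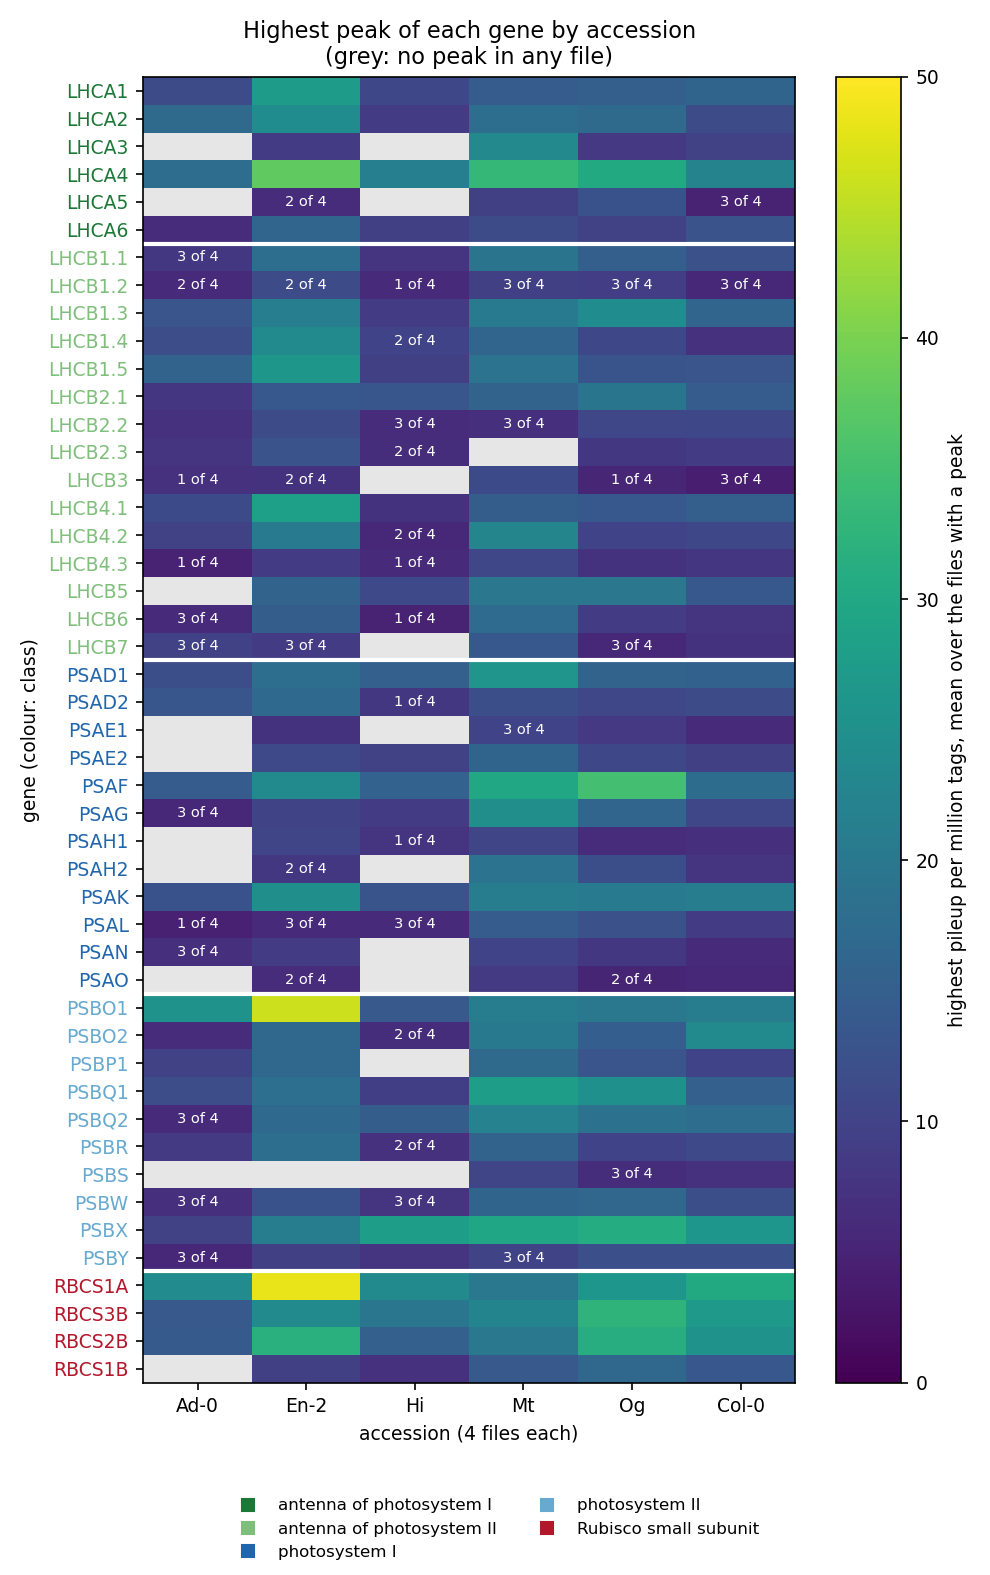
Highest pileup per 1000000 tags of each gene (rows, coloured by class) in each accession (columns), as the mean over the lists with a peak. Numbers in cells give the lists with a peak where these are fewer than 4 and grey means none. RBCS1A in En-2 is highest at 48.3, and most grey cells are in Ad-0 and Hi, with 10 genes each.

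The highest mean of the 47 genes was that of a Rubisco small subunit gene. RBCS1A (AT1G67090, chromosome 1, 25048158 to 25049667), reached 24.2 RPM in Ad-0, 48.3 in En-2, 23.7 in Hi, 19.99 in Mt, 26.2 in Og and 30.3 in Col-0, 28.8 ± 10.2 (SD, n = 6 accessions). Its 4 lists of En-2 gave 49.9, 58.1, 43.4 and 41.9, all above the 16.8 to 35.8 of the other 20 lists. RBCS2B (AT5G38420), the lowest of the 3 with a peak in every list, had 14.2 in Ad-0, 31.8 in En-2, 15.3 in Hi, 20.1 in Mt, 31.2 in Og and 25.6 in Col-0. RBCS3B (AT5G38410) ranged from 14.0 in Ad-0 to 32.5 in Og. RBCS1B (AT5G38430), the third gene of the array on chromosome 5, had no peak in Ad-0 and 7.14 to 16.7 elsewhere, below RBCS2B and RBCS3B in every accession.

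Among the photosystem I antenna genes, LHCA4 (AT3G47470, chromosome 3, 17493343 to 17495033) had the highest peak. It measured 17.95 RPM in Ad-0, 37.8 in En-2, 21.6 in Hi, 33.3 in Mt, 30.3 in Og and 22.4 in Col-0. LHCA4 forms a pair with LHCA1 in the antenna, and LHCA1 (AT3G54890) was lower than LHCA4 in all 6 accessions, at 10.8 to 27.4. LHCA6 (AT1G19150), a rare antenna protein that helps to join the NADH dehydrogenase-like complex to photosystem I, was the lowest with a peak in every list, at 6.28 in Ad-0, 16.3 in En-2, 9.52 in Hi, 11.7 in Mt, 9.63 in Og and 12.9 in Col-0. These peaks of LHCA6 were mostly not at its start.

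The photosystem II antenna genes with a peak in every list lay close together. LHCB1.3 (AT1G29930), a gene of the most abundant antenna protein, was the highest, with 13.2 RPM in Ad-0, 21.3 in En-2, 8.60 in Hi, 20.9 in Mt, 24.3 in Og and 16.3 in Col-0. LHCB2.1 (AT2G05100), whose product takes part in moving antenna between the photosystems, was the lowest, with 7.94 in Ad-0, 13.8 in En-2, 13.4 in Hi, 15.9 in Mt, 19.5 in Og and 14.5 in Col-0. Their ranges over accessions overlapped.

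In photosystem I, PSAF (AT1G31330), the subunit where plastocyanin docks, had 14.6 RPM in Ad-0, 23.7 in En-2, 15.6 in Hi, 29.8 in Mt, 35.1 in Og and 17.8 in Col-0. PSAD1 (AT4G02770), a subunit of the ferredoxin side, was the lowest of the 3 with a peak in every list, with 12.0 in Ad-0, 17.996 in En-2, 15.4 in Hi, 26.2 in Mt, 15.9 in Og and 15.5 in Col-0. PSAK (AT1G30380), an antenna-side subunit, stood between them and was the steadiest of all 17 genes after scaling, with a highest accession 1.27 times the lowest.

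In photosystem II, PSBO1 (AT5G66570), the main protein that stabilises the water-splitting manganese cluster, had 25.7 RPM in Ad-0, 46.2 in En-2, 14.0 in Hi, 21.2 in Mt, 20.1 in Og and 21.1 in Col-0. PSBQ1 (AT4G21280), another protein of the oxygen-evolving complex, was the lowest of the 3, with 11.8 in Ad-0, 18.2 in En-2, 9.28 in Hi, 27.8 in Mt, 25.2 in Og and 15.3 in Col-0. PSBX (AT2G06520), a small membrane subunit, ranged from 9.73 in Ad-0 to 31.0 in Og.

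Accessions differ in the height of all their peaks, so each value was also divided by the median of the 2360 genes in the same accession (12.2 RPM in Ad-0, 22.9 in En-2, 12.4 in Hi, 23.3 in Mt, 18.2 in Og and 18.1 in Col-0). After this scaling, the highest accession exceeded the lowest by at least 2-fold in 5 of the 17 genes (29.4%), beside 36.2% of the 2360 genes. The 5 were PSBX (2.81-fold, highest in Hi and lowest in Ad-0), RBCS1A (2.46-fold, En-2 and Mt), PSBO1 (2.32-fold, Ad-0 and Mt), LHCA2 (2.21-fold, Ad-0 and Col-0) and LHCB4.1 (2.08-fold, En-2 and Hi). Mt was the lowest accession for 7 of the 17 genes and the highest for none. The same was not counted over the 2360 genes, so it is not shown to be particular to these 17. The count rests on single lists: it was 10 of 18 genes (55.6%) without replicate 1, beside 38.1% of all such genes, 5 of 17 (29.4%) without replicate 2, beside 37.6%, 8 of 18 (44.4%) without replicate 3, beside 37.5%, and 11 of 18 (61.1%) without replicate 4, beside 37.7%. Between the 4 lists of an accession the median coefficient of variation was 9.62% in Col-0 to 21.1% in Ad-0, and between accessions it was 33.6% before scaling.

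Among the 47 genes, 15 had no peak in any list of at least 1 accession. Ad-0 and Hi lacked 10 genes each, and En-2 and Mt 1 each. Of all 27444 genes, 19570 had no peak in any list of Ad-0, 19954 in Hi, 14379 in En-2 and 7863 in Mt. Absence was thus less frequent among the 47 genes than among all genes. In Ad-0 alone, LHCB5, PSAE2, PSAH1 and RBCS1B had none. LHCB5 (AT4G10340) encodes the minor antenna protein CP26 and was the highest of the 4 elsewhere, with 16.0 RPM in En-2, 11.1 in Hi, 19.8 in Mt, 19.8 in Og and 13.8 in Col-0, while Ad-0 had no summit within 27.3 kb of its start. The lowest peak listed in Ad-0 had at most 4.04 RPM. PSAE2 (AT2G20260) had 9.48 to 16.2 in the 5 other accessions and PSAH1 (AT3G16140) 6.42 to 10.4, and both are subunits of photosystem I.

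In Hi alone, LHCB3, LHCB7, PSAN and PSBP1 had no peak. PSBP1 (AT1G06680), a protein of the oxygen-evolving complex, had 9.73 RPM in Ad-0, 17.0 in En-2, 17.3 in Mt, 13.2 in Og and 10.1 in Col-0, and the nearest summit in Hi lay 22.2 kb from its start. PSAN (AT5G64040), a lumen subunit on the plastocyanin side, had 5.95 to 9.98 elsewhere. LHCB3 (AT5G54270), an antenna protein of the trimers, was weak in general, with 1 list in Ad-0, 2 in En-2, 4 in Mt, 1 in Og and 3 in Col-0, and 4.23 to 11.3 RPM in them.

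Both Ad-0 and Hi lacked LHCA3, LHCA5, PSAE1, PSAH2 and PSAO. LHCA3 (AT1G61520), a main photosystem I antenna gene, had 8.60 RPM in En-2, 23.5 in Mt, 8.29 in Og and 9.85 in Col-0, all 4 lists in each. Where present, LHCA5 ranged from 4.85 to 12.6 RPM over accessions, PSAE1 from 6.16 to 10.1, PSAH2 from 7.74 to 19.1 and PSAO from 5.21 to 8.41. PSAH2 and PSAO encode subunits that bind the mobile antenna of photosystem II.

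A single gene was missing only from Mt, the accession with the longest lists. LHCB2.3 (AT3G27690) had no peak there, against 7.42 RPM in Ad-0, 12.8 in En-2, 6.61 in the 2 lists of Hi that had one, 8.17 in Og and 8.77 in Col-0. PSBS (AT1G44575), the protein that triggers heat release from excess light, had none in Ad-0, En-2 and Hi, and no list of any accession had a summit within 500 bp of its annotated start. Its summits in the 4 lists of Mt lay 1491 to 1492 bp after that start and those of Col-0 1457 to 1551 bp after it, beside the annotated start of a shorter transcript at 1475 bp. In the 3 lists of Og with a peak they lay at the other end of the gene, 3005 to 3492 bp after the start. Of the 22 absences of a gene from an accession, 20 were in Ad-0 or Hi, which also had the shortest lists, and the part that list length plays in an absence was not tested.

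The remaining genes had a peak in at least 1 list of every accession. LHCB1.2 (AT1G29910) had a peak in 1 to 3 lists of every accession and in all 4 of none, with 5.67 to 11.4 RPM where listed. LHCB1.4, LHCB2.2, LHCB4.2, PSAD2, PSBO2 and PSBR lacked 1 to 3 lists of Hi, and of these only LHCB2.2 also lacked a list elsewhere, in Mt. Over accessions LHCB1.4 ranged from 7.18 to 24.004 RPM, LHCB4.2 from 5.67 to 22.8 and PSBR, a small subunit of photosystem II, from 7.06 to 17.99, and the other 3 are given with their pairs. In some lists the LHCB1.4 value is that of a peak also credited to LHCB1.5, as in the 2 lists of Hi that had one. Within 500 bp of its own start LHCB1.4 had no peak in Hi. It had 7.94 RPM there in Ad-0, 13.5 in En-2, 10.96 in Mt, 10.8 in Og and 7.18 in Col-0. LHCB1.1 (7.71 to 19.2 RPM), PSAG (5.65 to 24.8) and PSBQ2 (6.18 to 22.2) lacked 1 list of Ad-0 and no other, and the lowest value was in Ad-0 for PSAG and PSBQ2 and in Hi for LHCB1.1. LHCB6 (5.04 to 17.4 RPM), PSBW (6.87 to 16.6), PSBY (5.80 to 12.3), PSAL (4.58 to 14.5) and LHCB4.3 (5.05 to 10.7) lacked 1 to 3 lists of Ad-0 and also lists of Hi or another accession. Without Ad-0 and Hi, a choice made after seeing the data, 35 of the 47 genes (74.5%) had a peak in all 16 lists, beside 23.4% of all genes.

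Near-identical copies can share tags, since the study's sources do not say how tags with several matches were placed. Of the 47 genes, 37 had only unique 36-base words (the tag length) within 250 bp of the start in the reference. The share of unique words was lowest for PSBS (81.3%), LHCB1.1 (85.6%), RBCS2B (86.9%) and PSBO1 (91.2%), and 97% or more for the other 6. The peak heights of LHCB1.1, RBCS2B and PSBO1 are therefore less certain, while the peaks of PSBS lie outside the bases counted. LHCB5, LHCA3 and LHCB2.3, whose peaks were absent from some accessions, had unique words only within these bases. The LHCA3 summits lay 227 to 381 bp after the start (median 261), so mostly outside them. The words are those of the reference, and whether tags of the accessions without a peak match there was not tested.

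The highest summit lay close to the start of most genes. Over the 20 lists of Ad-0, En-2, Hi, Mt and Og, the median distance was 10 bp after the start, with accession medians that varied by 14.9 bp (SD, n = 5). In 38 of the 47 genes (80.9%) the gene's median lay within 200 bp of the start, beside 50.5% of the 20473 genes with a peak in these lists. By class this held for 3 of 6 photosystem I antenna genes, 13 of 15 photosystem II antenna genes, 11 of 12 photosystem I genes, 8 of 10 photosystem II genes and 3 of 4 Rubisco genes. Of the 781 highest summits counted per gene and list, 380 lay before the start, 325 in the 5′ untranslated region, 31 in coding exons, 6 in introns, 9 in the 3′ untranslated region and 30 past the end. A gene counts here once for each list with a peak. These places were not counted over all genes, so they are not shown to be particular to the 47.

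**Figure D3:**
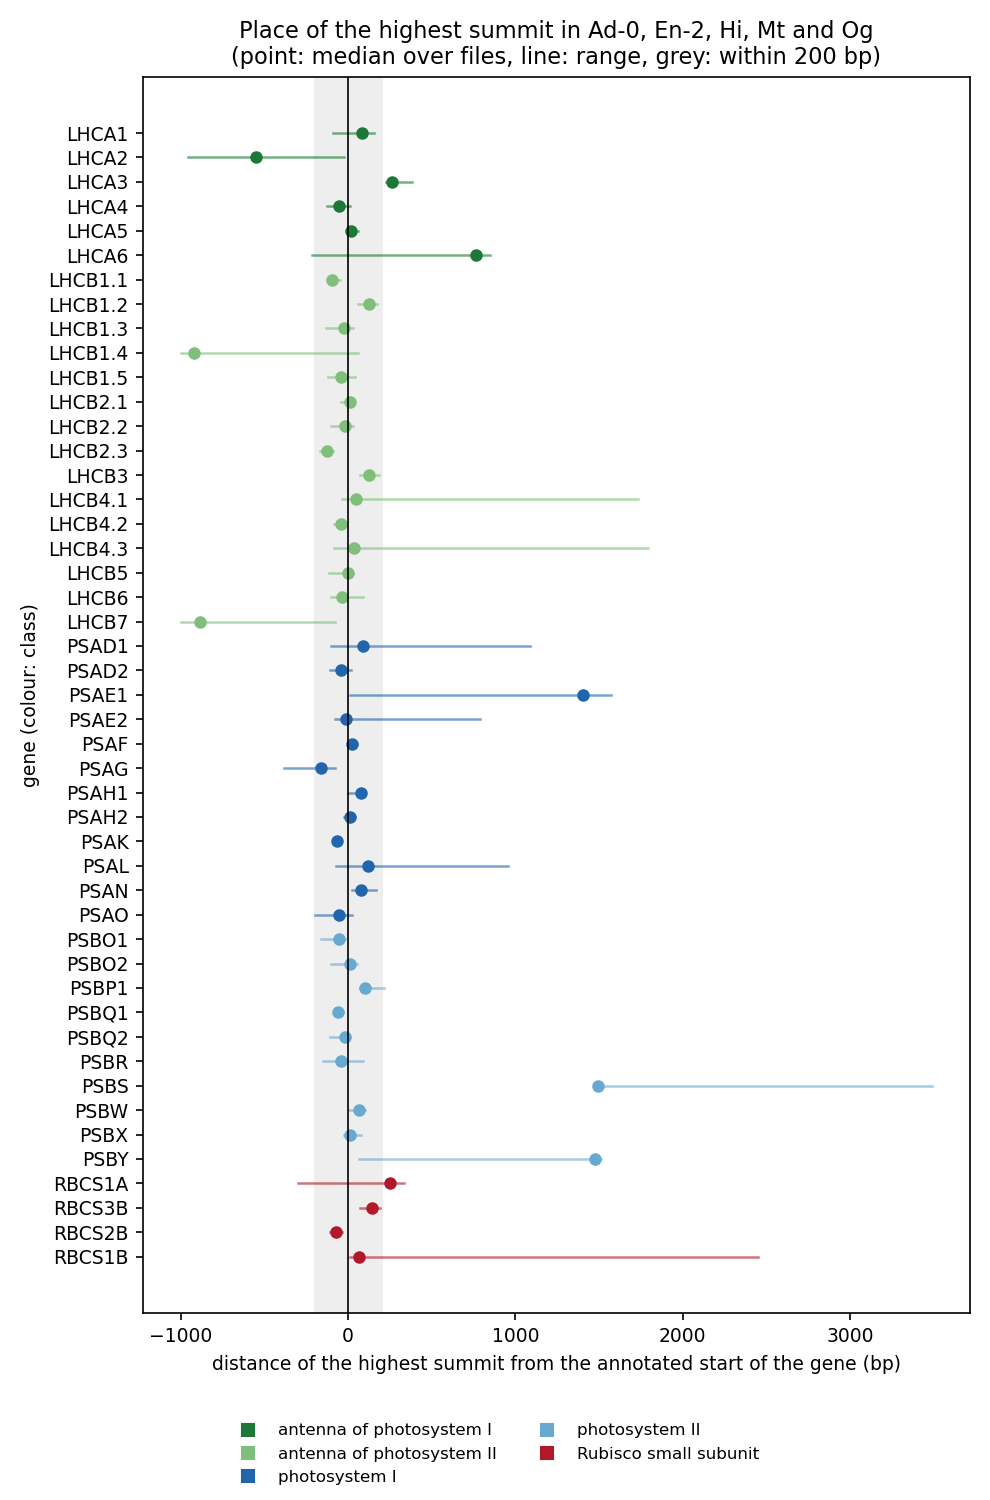
Distance of the highest summit from the annotated start of each gene (bp, negative before the start) in the 20 lists of Ad-0, En-2, Hi, Mt and Og, with the median as a point and the range as a line. For 38 of 47 genes the point lies within the grey band of 200 bp on each side.

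The 9 genes outside that distance were of different kinds. In LHCA3 (median 261 bp after the start) and RBCS1A (252 bp) the summit lay near an annotated inner transcript start, and the median distance to the nearest transcript start was 81 bp in LHCA3 and 39.5 bp in RBCS1A. The summits of PSBS, described above, lay near an inner transcript start in Mt and Col-0 but not in Og. LHCA2 (AT3G61470) had its highest summit anywhere from 960 to 24 bp before the start, and it was within 200 bp in 9 of 20 lists. For LHCB1.4 (AT2G34430) the nearest gene start was that of LHCB1.5 in 10 of 18 lists, and for LHCB7 (AT1G76570), a rare antenna gene, that of AT1G76560 in 7 of 13. PSAE1 (AT4G28750), a subunit of the ferredoxin side, had its highest summit past its end in 8 of 11 lists, nearest to the start of AT4G28755. PSBY (AT1G67740), a small subunit of photosystem II, also had it past its end, in 16 of 18 lists, although no other gene start was nearer. LHCA6 had its highest summit in coding exons in 16 of 20 lists, with a median of 765 bp. Measured to the nearest annotated transcript start, a measure added after seeing the data, 41 of the 47 genes had a median within 200 bp.

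The antenna genes known as rare from the low amounts of their proteins are LHCA5, LHCA6, LHCB4.3 and LHCB7. None of these 4 had a summit within 500 bp of the start in all 24 lists, and 7 of the other 17 antenna genes (41.2%) did, beside 5.49% of all genes. At a share that low, the lack of one among 4 genes does not set the rare genes apart from all genes. LHCA5 (AT1G45474) links photosystem I to the NADH dehydrogenase-like complex, as LHCA6 does. It had 6.33 RPM in 2 lists of En-2, 9.43 in Mt, 12.6 in Og and 4.85 in 3 lists of Col-0. LHCB4.3 (AT2G40100), a relative of the minor antenna protein CP29, had 5.05 in 1 list of Ad-0, 8.93 in En-2, 5.96 in 1 list of Hi, 10.7 in Mt, 7.25 in Og and 7.92 in Col-0. LHCB7 had 9.69 in 3 lists of Ad-0, 8.72 in 3 of En-2, 13.8 in Mt, 5.66 in 3 of Og and 7.33 in Col-0. The heights given here are those of the whole gene window. For LHCB7 the highest summit outside Col-0 was nearest to the start of AT1G76560 in 7 of 13 lists. With 4 genes, and with lists that leave out low peaks, no test of a difference was made.

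Related genes that encode the same subunit were then compared within each accession, using the highest summit within 500 bp of each start. Of 11 pairs, 6 had a peak for both genes in at least 1 list of every accession, and these were tested by a two-sided exact sign-flip permutation test of the log2 ratio over the 6 accessions, whose smallest possible p is 0.03125. Means were taken over the lists with a peak, which raises the value of a gene that is listed less often. The p-values are not adjusted for the 6 tests.

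LHCB2.1 was higher than LHCB2.2 (AT2G05070) in 6 of 6 accessions. LHCB2.2 had 7.18 RPM in Ad-0, 11.5 in En-2, 6.32 in Hi, 6.78 in Mt, 10.6 in Og and 10.9 in Col-0. The log2 ratio was 0.67 ± 0.45 (SD, n = 6, exact permutation p = 0.03125, the smallest possible), a ratio of 1.59. The groups of 6 values overlapped, from 7.94 to 19.5 for LHCB2.1 and from 6.32 to 11.5 for LHCB2.2. LHCB2.2 lacked 1 list in each of Hi and Mt. Without replicate 4 the log2 ratio was 0.60, with an exact permutation p of 0.0625.

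The other 5 pairs did not pass the test. PSBO1 stood over PSBO2 (AT3G50820) by 0.82 ± 0.85 on the log2 scale (SD, n = 6, exact permutation p = 0.09375), higher in 5 of 6 accessions. PSBO2 had 6.40 RPM in Ad-0, 16.7 in En-2, 6.54 in 2 lists of Hi, 20.3 in Mt, 14.9 in Og and 23.9 in Col-0, so that the ratio was largest in Ad-0 and turned in Col-0. PSAD1 over PSAD2 (AT1G03130) was 0.45 ± 0.49 (SD, n = 6, exact permutation p = 0.09375), with PSAD2 at 8.14 in the 1 list of Hi to 17.2 in En-2. RBCS1A over RBCS3B was 0.29 ± 0.53 (SD, n = 6, exact permutation p = 0.3125), and this was the only pair with both genes in all 24 lists. LHCB4.1 (AT5G01530) over LHCB4.2 (AT3G08940), both genes of CP29, was 0.15 ± 0.46 (SD, n = 6, exact permutation p = 0.40625), and PSBQ1 over PSBQ2 (AT4G05180) was 0.15 ± 0.55 (SD, n = 6, exact permutation p = 0.53125). With 6 accessions and SDs of this size these values do not show that the genes of a pair are alike.

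**Figure D4:**
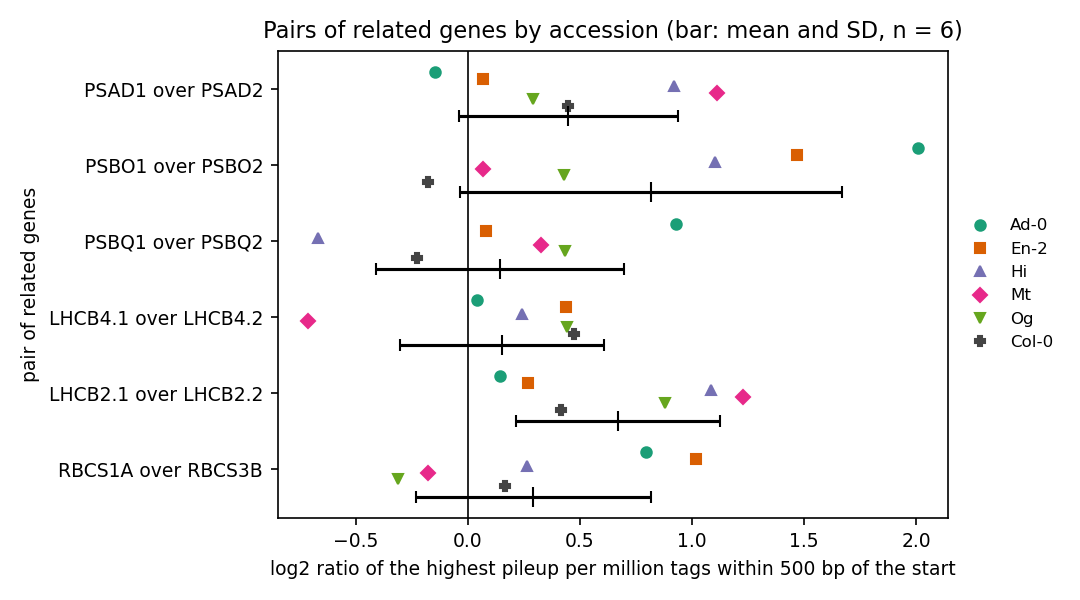
Log2 ratio of the highest pileup per 1000000 tags within 500 bp of the start, for 6 pairs of related genes in each of 6 accessions (symbols), with the mean and SD as a bar. All 6 symbols of LHCB2.1 over LHCB2.2 lie above 0, and every other pair has symbols on both sides.

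For 5 pairs a gene had no such peak in at least 1 accession, and the number of lists is given instead. Near its start PSAE1 had a peak in 11 of 24 lists and PSAE2 in 15. PSAH1 had one in 17 and PSAH2 in 14. LHCB4.1 had one in all 24 and LHCB4.3 in 17, LHCB2.1 in all 24 and LHCB2.3 in 18, and LHCB1.5 (AT2G34420) in all 24 and LHCB1.4 in 20. In the whole gene window LHCB4.1 stood over LHCB4.3 in 6 of 6 accessions, by 0.91 ± 0.49 on the log2 scale (SD, n = 6, exact permutation p = 0.03125). This comparison mixes sites. Outside Col-0 the highest summit of LHCB4.1 lay in the 3′ untranslated region in 4 and past the end in 3 of 20 lists. That of LHCB4.3 lay in the 3′ untranslated region in 2 of 14 lists. The LHCB4.3 values of Ad-0 and Hi rest on 1 list each, and in Ad-0 it had no peak near its start.

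The promoters of LHCB2.1 and LHCB2.2 are shown because only this pair passed the test near the start, a choice made after the values were seen. They lie on the minus strand at chr2:1824481-1824730 and chr2:1800473-1800722, with the same words in capitals.
LHCB2.1: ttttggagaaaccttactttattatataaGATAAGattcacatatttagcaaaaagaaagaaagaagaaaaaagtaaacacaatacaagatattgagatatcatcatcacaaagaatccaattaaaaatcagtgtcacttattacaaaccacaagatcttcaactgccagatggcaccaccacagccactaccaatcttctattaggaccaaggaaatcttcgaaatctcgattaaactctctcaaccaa
LHCB2.2: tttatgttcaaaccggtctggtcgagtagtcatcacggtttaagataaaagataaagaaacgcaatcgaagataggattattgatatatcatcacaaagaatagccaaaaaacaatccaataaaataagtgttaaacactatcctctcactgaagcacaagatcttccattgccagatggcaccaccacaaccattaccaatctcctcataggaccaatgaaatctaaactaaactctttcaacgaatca
LHCB2.1 held an I box 221 bp before its start and LHCB2.2 held none of the 5 words in this stretch. Within 250 bp of the start, 98.5% of the 36-base words of LHCB2.1 and 98.9% of those of LHCB2.2 were unique.

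The short words named above were counted from 250 bases before to 50 after the start of each gene, on both strands. The G box was present in 16 of the 47 genes (34.0%) and in 7.68% of all 27444 promoters of the same length. It was found in 6 of the 10 photosystem II genes, among them PSBO1, PSBO2, PSBQ1 and PSBQ2, and in 4 of the 12 photosystem I genes. The I box was present in 19 genes (40.4%), beside 14.6% of all promoters, and in 8 of the 12 photosystem I genes. Both words together were in 8 genes (17.0%), beside 1.29%.

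The CCAAT box (CCAAT) was present in 34 genes (72.3%) beside 51.6%, and in all 15 photosystem II antenna genes. The CCA1-binding site was in 15 genes (31.9%) beside 19.0%, of which 8 were antenna and 7 photosystem I genes, with none in photosystem II or Rubisco genes. The GT1 box (21.3% beside 16.7%), the evening element (AATATCT, 12.8% beside 11.5%) and the TATA box (48.9% beside 52.1%) had shares near those of all promoters. A match is a word in the reference and not a bound site.

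The words were also counted around the peak instead of the annotated start. In the 301 bases centred on the highest summit near the start in Og replicate 1, the G box was present in 22 of the 44 members with such a peak (50%), beside 17.3% of the 9157 genes with one. The I box was present in 28 (63.6%) beside 19.0%, and the CCA1-binding site in 19 (43.2%) beside 14.2%. The CCAAT box was present in 34 (77.3%) beside 57.8%, and the TATA box in 23 (52.3%) beside 41.3%. The GT1 box was present in 5 (11.4%) beside 18.6%, and the evening element in 2 (4.55%) beside 9.75%. The gene's summit and the words are on the same DNA, and the base composition of these windows was not matched.

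**Figure D5:**
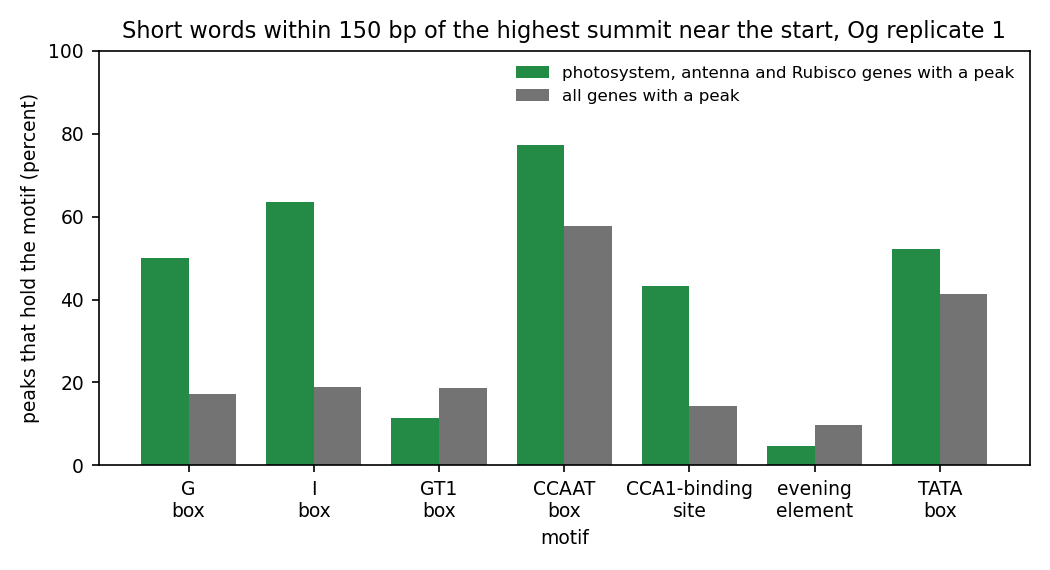
Percent of 301-base windows around the highest summit near the start in Og replicate 1 that hold each word on either strand, for photosystem, antenna and Rubisco genes with a peak (44) and for all genes with one (9157). The I box stands at 63.6% against 19.0% and the G box at 50% against 17.3%.

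In 3 Rubisco genes the G box lay near the summit although their annotated starts differ, and RBCS1B had none from 250 bp before to 300 bp after its start. Over Ad-0, En-2, Hi, Mt and Og the G box began 93 bp before the median summit of RBCS1A, 24.5 bp before that of RBCS3B and 49 bp before that of RBCS2B. In Col-0, whose positions hold only within 150 bp, the median summits lay at 142 bp (RBCS1A), 99.5 bp (RBCS3B) and -127 bp (RBCS2B) from the start, so that the G boxes began after them. Relative to the annotated gene start it began 159 bp after it in RBCS1A, 119 bp after it in RBCS3B and 123 bp before it in RBCS2B. RBCS1A and RBCS3B each have an annotated transcript that starts farther inside, at 243 and 226 bp, and from those starts both boxes lie upstream as they do in RBCS2B. In LHCA4 the G box began 35 bp before the median summit, and in PSBO1 it began 3 bp after the annotated start and 57 bp after the median summit.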

How the data were processed

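Leaf ATAC-seq was measured by the authors, who sorted nuclei by fluorescence, cut them with Tn5 and called peaks on each library without a control. Per the labels, Bowtie 1.2.2 and MACS2 2.1.2 were used with the TAIR10 build, whereas the paper describes alignment to the genome of each accession. The lists of Ad-0, En-2, Hi, Mt and Og carry reference chromosome names and the last peak among them on chromosome 4 ends on the last reference base (18585056), so their positions were used as TAIR10 positions. If a list rests on another assembly, its gene assignments, distances and absences would be off. How Bowtie placed tags with several matches is not given in the sources used here. The deposited pileup is a signal, the coverage of extended tags at a summit, and it is not scaled between libraries. The authors' lists also give −log10 of the p-value and of the q-value (cutoff 0.05 per the file headers, which were followed although the paper's supplement names a looser cutoff) and the fold enrichment over the local background.

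Pileups were divided by the tags of the library and multiplied by 1000000 (RPM), and the highest peak of a gene was taken. Gene positions came from the RefSeq annotation of TAIR10, and the last peak on each of the 5 chromosomes lay within its reference length. Calculations used Python 3.11.15, NumPy 2.4.6 and matplotlib 3.10.9, and the code was tested on simulated data. Accessions were not tested against each other, since each counted as 1 sample. Related genes were compared by exact sign-flip permutation tests over 6 accessions with a threshold of 0.05. The depth of each list is in the report, and as the lists hold no counts outside peaks, no interval from counts was computed.

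The genes described in full are the highest and lowest of each class among those with a peak in all 24 lists, every gene without a peak in some list (grouped, some by their range), both genes of each pair, and 4 rare antenna genes. Members, lists and tests were chosen with earlier results of these data known. Alternatives were a q-value of 0.01 or less, overlap in place of the summit, summits within 500 bp of the start, a window from 2000 bp before it, peaks nearest to the gene's own start, scaling by the median pileup, fold enrichment in place of pileup, and leaving out each replicate or Col-0. The other 68 lists of the series were not used here. Of the promoters chosen for printing, 1 is not reported here.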

Additional observations from a re-analysis of the deposited data

Results flagged for a closer look

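Among 18 sets of 6 accession values examined for a value far from the others, 4 had one. For unrelated sets the rule would mark about 1 in 20 (0.9 of 18). The sets here come from the same lists and the 4 values were taken before scaling, so that number is no yardstick for them. All 4 were high values in En-2. LHCA1 had 27.4 RPM there against 10.8 to 16.0 elsewhere, and LHCB4.1 had 28.2 against 7.37 to 15.1. PSBO1 had 46.2 against 14.0 to 25.7, and RBCS1A had 48.3 against 19.99 to 30.3. The median of all genes with a peak in every list was also high in En-2, at 22.9 RPM, beside 23.3 in Mt and 12.2 to 18.2 in the others. En-2 had the fewest tags, 1463227 to 1502898 per list. After scaling by that median, En-2 was still the highest accession for LHCA1 (1.197, next 0.93 in Ad-0), LHCB4.1 (1.23, next 0.93 in Ad-0) and RBCS1A (2.11, next 1.99 in Ad-0), and for PSBO1 it had 2.02 and Ad-0 2.11. The part that the general height of peaks in En-2 plays was not tested.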

How the results depend on the processing

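The number of genes with a peak in all lists (17), the ratio of their height to that of all genes (0.979) and the median distance of the summit (10 bp) stayed within 1.5 times or within the spread over accessions under every alternative run on them but those named here. Leaving out a replicate gave 17 to 18 genes, ratios of 0.980 to 1.02 and distances of 9 to 13 bp. Without Ad-0 and Hi, an alternative chosen after seeing the data, 35 genes had a peak in all remaining lists. The count of genes that varied 2-fold (5) ranged from 5 to 11 when a replicate was left out. The cause was not tested. Of the 6 pairs, 1 passed the test. In the whole gene window, where summits away from the start also count, 2 of 8 pairs passed. Without Col-0 none did, because 5 accessions allow no p under 0.0625, and the range over left-out replicates was 0 to 1. The ratio of LHCB4.1 to LHCB4.2 turned to -0.29 on the log2 scale with fold enrichment, where the cause was not tested. No gene had a peak in untreated Col-0 under any alternative tried. No paired analysis was possible because the replicate numbers only name the lists of an accession, which counted as 1 sample, and no accession was tested against another. The related genes were paired by accession, not by these numbers. The lists leave out sites that did not pass the q-value cutoff, and their lowest peaks had 2.94 to 4.52 RPM, which limits every count of absent peaks.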

Other observations

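In the array of Rubisco genes on chromosome 5, RBCS1B had the lowest peak in every accession that listed it. In Hi it had 7.14 RPM, beside 15.3 for RBCS2B and 19.7 for RBCS3B. Ad-0 did not list it, and the lowest peaks of the Ad-0 lists had 3.56 to 4.04 RPM. The cause of this absence was not tested. RBCS3B had 14.0 RPM in Ad-0 and RBCS2B had 14.2, in all 4 lists each, while RBCS1B had no peak in any, with the nearest summit 3.16 kb from its start.

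LHCB2.3 was absent from Mt, where PSAH2, absent from Ad-0 and Hi, reached its highest value of 19.1.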
